A study of Oncorhynchus mykiss with 16 samples.

Results

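The liver transcripts described here are the 50 of 152 genes on a small trout cDNA array whose spots stood above the blank spots on most arrays. They were chosen by brightness: a gene counted as detected in a dye where its mean ratio of spot signal to local background lay more than 3 SD above the mean of that array's 32 blank spots. Genes detected in both dyes on 8 or more of the 16 arrays were taken, and the other 102 genes are the comparison set. Because brightness chose the genes, their levels and detection counts are a description and carry no test. The choice did not use the ratio of sample to reference, although the same spot intensities enter it.

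Juvenile rainbow trout (Oncorhynchus mykiss) were exposed in the field to 10%, 50% or 100% municipal wastewater effluent or, as the control (0%), held at an upstream site. Whole liver RNA was made into 4 independent pools per group, given as biological replicates, and each pool was hybridized on 1 array against a reference pooled from all experimental samples. The number of fish in a pool and the length of exposure stay unstated in the sources at hand. Each array carried the sample in one dye and the reference in the other: the sample was in Cy5 on 2 of 4 control arrays, 2 of 4 arrays at 10%, 3 of 4 at 50% and 1 of 4 at 100%. With 1 array per pool, the spread between pools cannot be told apart from the spread between arrays.

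The liver makes most plasma proteins and the enzymes that oxidize and conjugate foreign compounds. In fish it also makes the egg yolk precursor vitellogenin when estrogen reaches it, so hepatic transcripts are widely used to follow exposure to sewage effluent. In a common-reference design the same reference RNA is on every array, and the log2 ratio of sample to reference is what is compared between groups. The array's genes are known here by identification number only, so no name, role or sequence can be given for any of them. Whole liver also holds blood cells and other cell types, and fewer cells of a type cannot be told apart from less RNA per cell.

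Detection separated a small core from a long edge. Genes 37, 121, 130, 131 and 144 were above the blanks in both dyes on 16 of 16 arrays, and 7 further genes (31, 48, 54, 56, 68, 93 and 146) on 15. At the threshold, 9 genes were detected on 8 arrays, with median signals of 1.08 to 1.15 times background, and 11 genes just outside it were detected on 7 arrays, with 1.07 to 1.11 times background. The boundary therefore runs through genes of like brightness. At the far end, 22 genes were detected in both dyes on no array.

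The number of detected genes above the blanks in both dyes varied widely between arrays of one group. It was 34 ± 6.38 of 50 in control (SD, n = 4, range 25 to 40), 29.75 ± 11.8 at 10% (SD, n = 4, 20 to 47), 45.5 ± 6.35 at 50% (SD, n = 4, 36 to 49) and 32.75 ± 16.4 at 100% (SD, n = 4, 10 to 49). The 50% group had the highest mean, and its range overlapped that of each other group. Counts for the other 102 genes also varied widely. In both dyes, 6, 8, 23 and 9 of them were above the blanks in control and 1, 4, 34 and 9 at 10%. At 50% the counts were 65, 5, 35 and 40, and at 100% they were 53, 1, 4 and 8. The variation between arrays was thus not particular to the 50 genes. Gene 176 was detected in both dyes on 0 control arrays, although it met the threshold over all 16.

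Cy5 background moved with these counts. A median Cy5 background above 1000 was found on 2 control arrays, 3 arrays at 10%, 0 at 50% and 2 at 100%. A median of 26 detected genes (range 10 to 40) was above the blanks on those 7 arrays, against 47 (25 to 49) on the 9 arrays of low background. The median Cy5 level of the 50 genes was 1.15 times background on the 7 arrays and 1.29 on the 9, and the median Cy3 level was 1.08 and 1.27. The part of the background in the differences between groups was not tested.

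**Figure D1:**
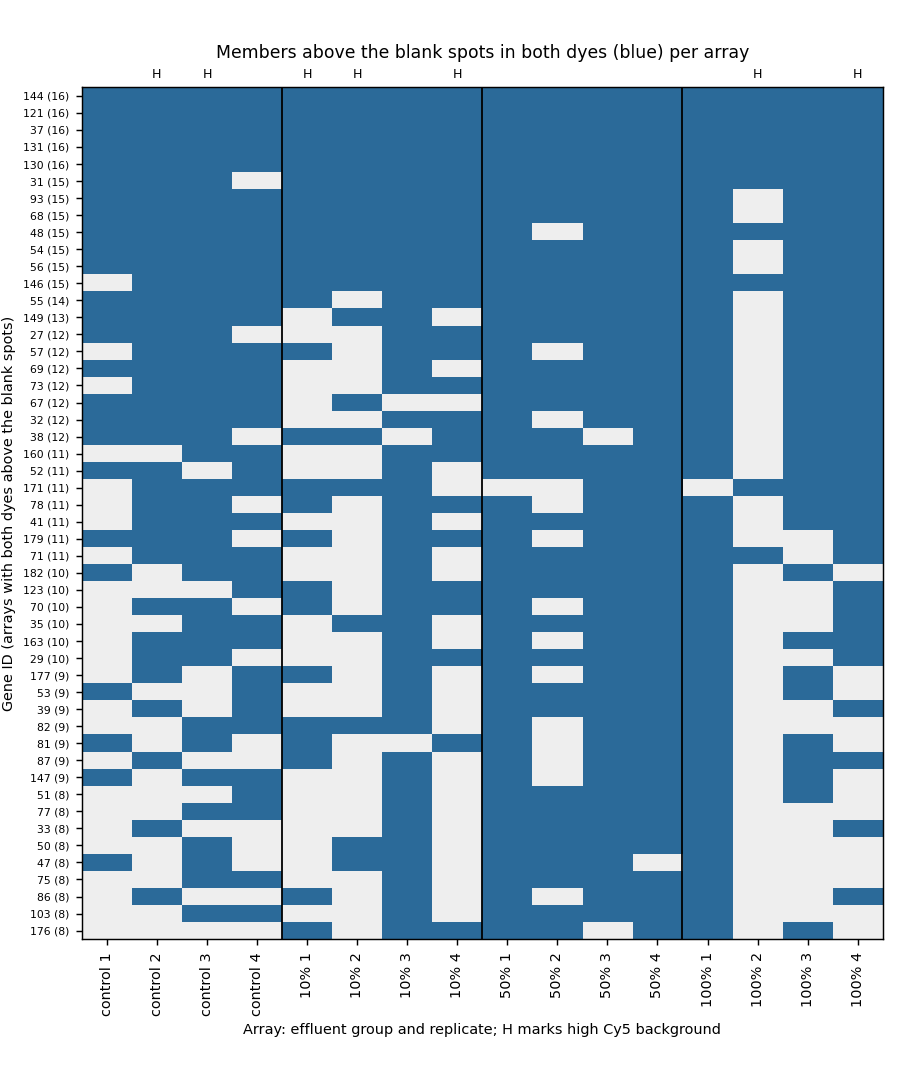
Detection of each of the 50 genes (rows) on each of the 16 arrays (columns, by effluent concentration), blue where both dyes stood above the blanks, with H over arrays of high Cy5 background. The 50% arrays hold 36 to 49 genes detected in both dyes, and the array with fewest, 100% replicate 2, holds 10.

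Most of the 50 genes were dim. Their median signal was 1.17 times background (range 1.08 to 10.3), against 1.04 (1.01 to 1.11) for the other 102 genes. Only 7 of the 50 exceeded 2 times background, and 28 stayed under 1.2 times. Detection was more frequent in Cy3 than in Cy5 for 31 genes, less frequent for 7 and equal for 12.

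The brightest spots were those of gene 144 at 10.3 times background and gene 121 at 10.1, followed by gene 37 at 6.32, gene 31 at 5.15, gene 131 at 2.67, gene 93 at 2.09, gene 130 at 2.08 and gene 68 at 1.93. This is an order of spot brightness, which depends on the probe, and not of transcript amount.

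For gene 144, the sample level in control pools was 2.29, 2.88, 8.44 and 21.2 times background, against 4.78, 23.5, 27.8 and 8.51 for the reference on the same arrays. At 10% the sample stood at 12.5, 11.1, 7.54 and 1.71 times background, against 2.12, 2.12, 11.3 and 8.88 for the reference. At 50% it stood at 10.3, 4.63, 30.9 and 16.4, against 54.4, 3.17, 12.9 and 5.98. At 100% it stood at 15.0, 10.3, 10.4 and 1.87, against 24.8, 1.77, 24.4 and 33.4 for the reference. The sample exceeded the reference on control replicate 4, 10% replicates 1 and 2, 50% replicates 2, 3 and 4 and 100% replicate 2. The groups overlapped, and the reference, which is one RNA throughout, varied from array to array as widely as the sample level.

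Reference levels of other bright genes also varied between arrays. The reference level of gene 37 ran between 1.17 and 108 times background over the 16 arrays, and that of gene 131 between 1.14 and 24.5. Of the 8 brightest genes only gene 31 had sample levels at one concentration clear of another: 5.27 to 17.4 times background at 50%, against 1.34 to 5.02 at 10% and 1.03 to 5.01 in control. The reference of gene 31 on the same arrays stood at 6.41 to 50.7 at 50%, 1.25 to 6.75 at 10% and 1.01 to 19.6 in control. Its dye-adjusted log2 difference was -0.11 for 50% against 10% and -0.32 for 50% against control (limma, adjusted p 0.950 and 0.993). Gene 31 reached its highest sample level, 70.0 times background, on 100% replicate 1, where the reference stood at 114. On 10% replicates 1 and 2 the sample exceeded the reference more than 2-fold for 8 of the 50 genes each, and the reverse held for 0. Genes 130 and 68 had the largest such ratios: gene 130 had 11.2 and 11.8 times background in the sample against 1.19 and 1.28 in the reference, and gene 68 had 7.35 and 7.71 against 1.23 and 1.27. On both of those arrays the sample was in Cy5 and the median Cy5 background was high, at 4943 and 4884. The same held for 100% replicate 2 (4402), where the counts were 7 and 0. The skew was reversed on control replicates 2 (0 and 9) and 3 (0 and 10), 50% replicate 1 (0 and 11) and 100% replicates 1 (2 and 8) and 4 (0 and 8). The sample was in Cy3 on these arrays, and the part of the dye or background was not tested.

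**Figure D2:**
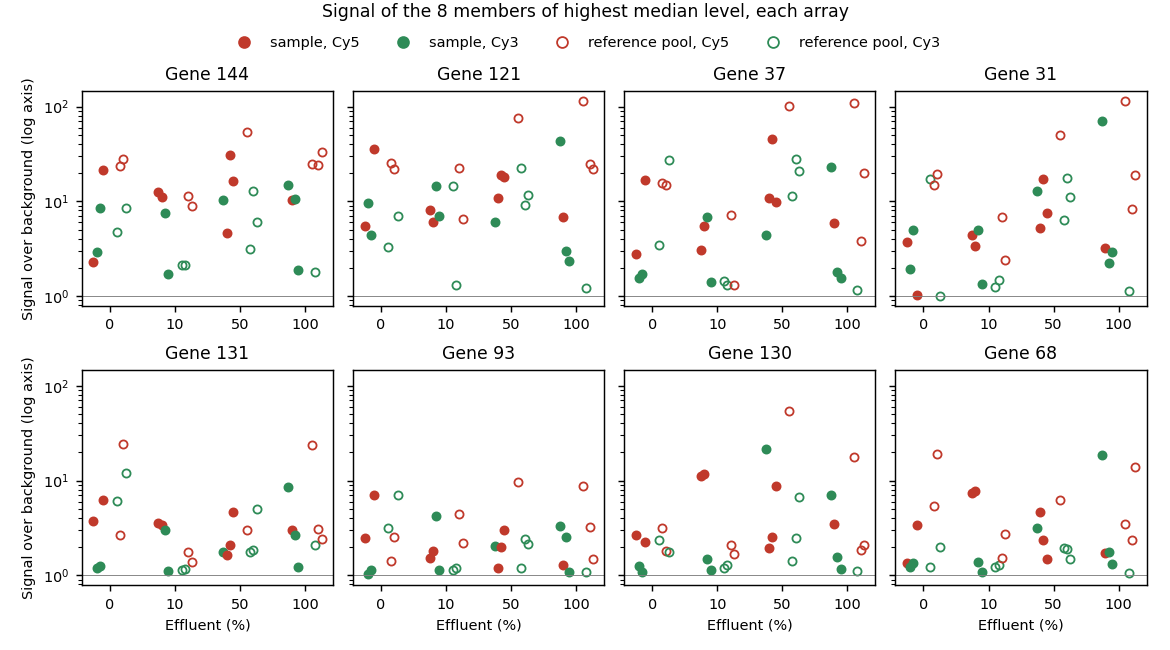
Signal over background (log axis) of the 8 brightest genes on each array by effluent concentration, filled for the sample and open for the reference, red in Cy5 and green in Cy3. For gene 144 the sample runs between 1.71 and 30.9 times background and the reference between 1.77 and 54.4, with no concentration set apart.

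The level of the one reference RNA differed between the dyes. With the reference in Cy5 (8 arrays) its median level was 24.6 times background for gene 144, against 3.97 with the reference in Cy3 (the other 8 arrays). For gene 121 the medians were 23.7 in Cy5 and 8.04 in Cy3, for gene 31 they were 16.9 and 3.94, and for gene 68 they were 4.47 and 1.38. All 8 of the brightest genes had the higher reference median in Cy5, as did 24 of the 42 dimmer ones. For the sample, the medians in Cy5 and Cy3 were 11.8 and 7.99 for gene 144 and 9.46 and 6.49 for gene 121. They were 4.03 and 3.98 for gene 31 and 2.87 and 1.36 for gene 68. The arrays of each dye assignment also differ in effluent group, and the part of the dye alone in these levels was not tested. Since the sample was in Cy5 on 3 arrays at 50% and on 1 at 100%, sample levels that mix the dyes cannot be compared between those groups. The ratios per array and the group means below are not adjusted for the dye, while the differences, slopes and tests are.

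For most of the 50 genes the reference level varied within groups at least as widely as the sample level. The SD within groups of the log2 sample level had a median of 0.251 over the 50 genes (range 0.0391 to 1.48), and that of the log2 reference level a median of 0.265 (0.0687 to 1.91). The reference SD was at or above the sample SD for 40 of the 50 genes. Both SDs mix Cy5 and Cy3 arrays within a group, and the sample SD holds array and dye spread as well as any spread between pools. After background correction and loess normalization, the SD within groups of the log2 ratio of sample to reference was 0.45 (0.18 to 1.57), against 0.23 (0.10 to 0.63) in the other 102 genes. It exceeded 1 for 5 of the 50 genes (68, 121, 131, 144 and 171) and for 0 of the other 102. The spots of one gene on one array differed by a median of 0.30 on the log2 scale, against 0.17 in the other genes. The offset of the background correction pulls ratios of dim spots towards 0, so these spreads cannot be compared directly between the 50 genes and the dimmer 102.

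**Figure D3:**
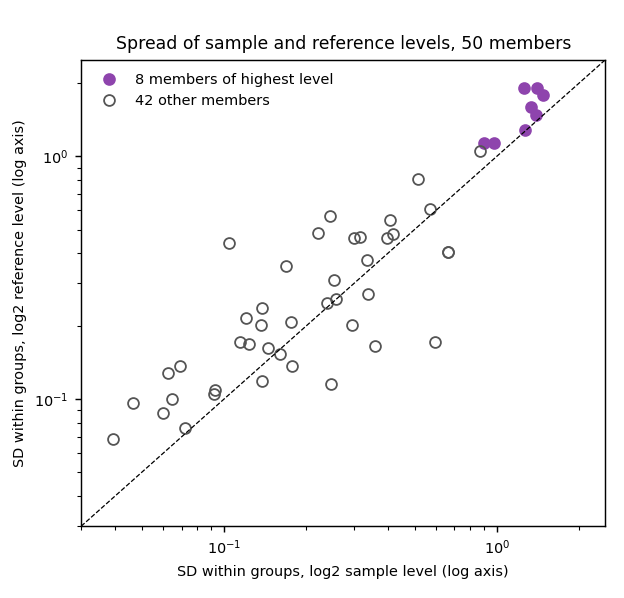
Within-group SD of the log2 reference level set against that of the log2 sample level, both on log axes, for the 8 brightest of the 50 genes (filled) and the other 42 (open), with a line of equality. For 40 of the 50 genes the reference, one RNA on all arrays, varied at least as much as the sample level, and both mix the dyes.

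Over the 4 concentrations the 50 genes had no common profile in the loess-normalized ratios. Loess removes a trend of ratio with brightness on each array, so it can also remove a shift shared by genes chosen as bright. With median centring in its place (described below), 86%, 54% and 80% of the 50 genes were higher than control at 10%, 50% and 100%. The profiles that follow are those with loess. The highest group mean of the log2 ratio, without the dye term, fell in control for 14 genes, at 10% for 13, at 50% for 12 and at 100% for 11, and the lowest in control for 14, at 10% for 13, at 50% for 11 and at 100% for 12. Over all 152 genes the highest mean fell in control for 34.9%, at 10% for 24.3%, at 50% for 20.4% and at 100% for 20.4%. The lowest fell in control for 23.7%, at 10% for 31.6%, at 50% for 19.1% and at 100% for 25.7%. With the dye term the highest mean fell in control for 12 of the 50 genes and at 10% for 13. It fell at 50% for 13 and at 100% for 12. The lowest fell in control for 12, at 10% for 7, at 50% for 16 and at 100% for 15. Over all 152 genes these shares were 33.6%, 23.7%, 22.4% and 20.4% for the highest and 20.4%, 26.3%, 24.3% and 28.9% for the lowest. Without the dye term, group means rose at every step for 0 of the 50 genes (4 of 152 on the array), fell at every step for 2 (genes 56 and 86, against 11 of 152), and did neither for 48. With it, gene 68 rose and gene 86 fell at every step (2 and 7 of 152 on the array), and gene 56 did neither. In gene 86 the unadjusted means were 0.02 ± 0.15 in control, -0.00 ± 0.49 at 10%, -0.09 ± 0.36 at 50% and -0.31 ± 0.29 at 100% (SD, n = 4 each), so the steps were small against the spread within groups.

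**Figure D4:**
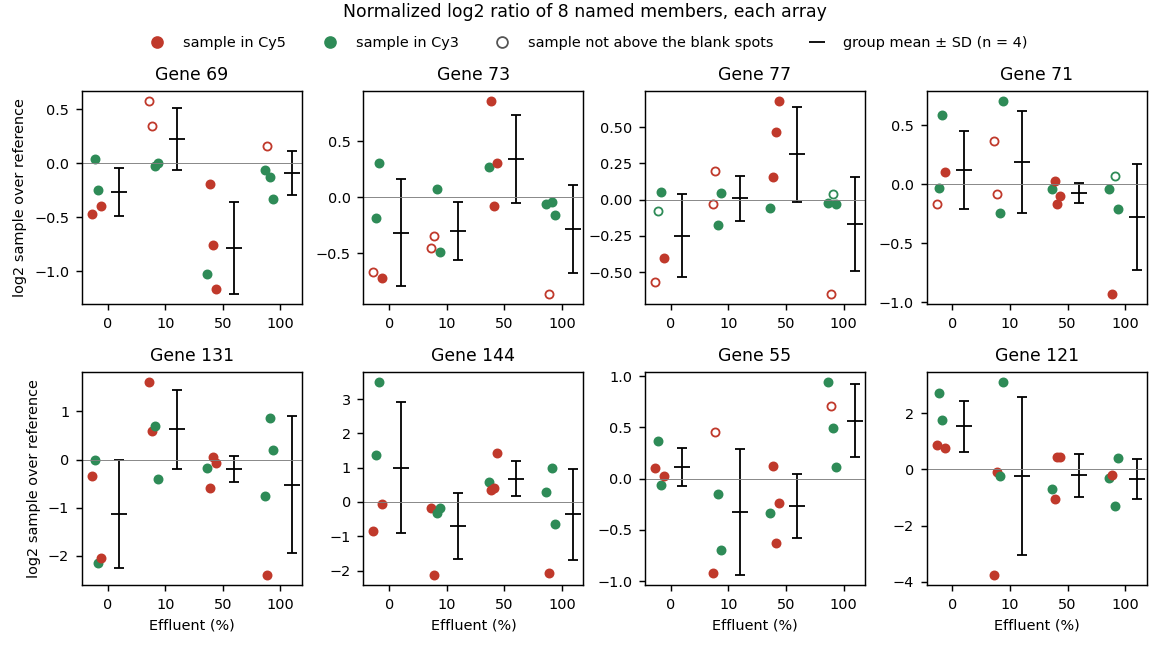
Log2 ratio of sample to reference on each array (red in Cy5, green in Cy3, open where the sample was not above the blanks) with group means and SD (n = 4 each) for 8 named genes, by effluent concentration. Gene 69 lies between -1.17 and -0.20 at 50% and between -0.02 and 0.58 at 10%, without overlap, while genes 121, 131 and 144 spread over several log2 units within a group.

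In livers from 10% effluent, no gene of the 50 differed from control after adjustment over all 152 genes (0, against 0% of the array; limma with Benjamini-Hochberg adjustment), and 4 of 50 passed an unadjusted p of 0.05 (3 higher, 1 lower), a share of 8% against 7.24% of the array. That count of 4 was 1 without control replicate 4, 2 without control replicate 3 or 10% replicate 1, 7 without control replicate 2 and 8 without 10% replicate 4. Of the 50 differences with loess, 25 were above 0 and 25 below, with a median of 0.0033, against -0.03 over all genes. The array's 4 differences beyond 1 on the log2 scale were all in this set of bright genes. The offset of the background correction pulls ratios of dim spots towards 0. The median SE was 0.27 in the 50 genes and 0.16 in the other, dimmer genes. The place of these 4 differences therefore cannot show that the 50 genes responded more than the dimmer ones.

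Gene 131 had log2 ratios of 1.62, 0.58, 0.71 and -0.40 at 10% and of -0.35, -0.01, -2.15 and -2.05 in control. The lowest 10% pool lay below 2 of the control pools, so the groups overlapped. That pool is replicate 4, where the recorded dye and the deposited ratios disagree in direction, and turned it would stand at 0.40, above all control pools. The dye-adjusted difference was 1.77 (SE 0.65, 95% interval 0.37 to 3.17, a 3.40-fold higher ratio; limma, adjusted p 0.533). Gene 144 had -0.17, -2.14, -0.32 and -0.16 at 10%, against -0.85, 1.38, 3.50 and -0.06 in control, also with overlap, and a difference of -1.69 (SE 0.64, adjusted p 0.533 by limma), which was -1.05 without control replicate 3. Gene 69 was 0.49 higher (SE 0.20, adjusted p 0.533) and gene 121 was 1.78 lower on the log2 scale (difference -1.78, SE 0.94, adjusted p 0.692). Gene 121 spanned -3.78 to 3.13 within the 10% group. The difference was -0.70 without 10% replicate 1 and -2.80 without 10% replicate 4. Its value of 3.13 is that of replicate 4. Turning that array together with its dye term gave a difference of -3.16 (adjusted p 0.0546), and turning its sign alone gave -3.34 (adjusted p 0.0438, both by limma).

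In livers from 50% effluent, 0 of the 50 genes passed the adjusted threshold against control and 3 of 50 (2 higher, 1 lower; 6%) passed unadjusted, against 3.29% of the array. The count of 3 was 5 without control replicate 4, 10% replicate 3 or 50% replicate 1 and 6 without 10% replicate 4 or 50% replicate 3. Gene 73 showed the smallest p. Its sample level was 2.24, 2.76, 2.93 and 3.15 times background at 50%, against 1.12, 1.06, 1.08 and 2.41 in control, and its log2 ratios were 0.27, 0.86, -0.08 and 0.31 at 50%, against -0.66, -0.19, 0.30 and -0.72 in control. The levels are not adjusted for dye or array: the sample was in Cy5 on 3 arrays at 50% and 2 in control, and Cy5 background was high on 0 and 2. Over all groups the median sample level of gene 73 was 1.76 in Cy5 and 1.13 in Cy3. Pools of the groups overlapped in the ratio. The difference was 0.76 (SE 0.23, 95% interval 0.28 to 1.24, 1.70-fold; limma, adjusted p 0.683).

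Gene 77 had log2 ratios of -0.06, 0.15, 0.47 and 0.68 at 50% and of -0.57, -0.08, 0.05 and -0.41 in control, again overlapping, with a difference of 0.59 (SE 0.20, adjusted p 0.791). Gene 69 was lower at 50% than in control, by a difference of -0.56 (SE 0.21, adjusted p 0.819), and gene 54 by -0.53 (SE 0.26, adjusted p 0.990; -0.16 without control replicate 1). In gene 54 the control mean of 0.42 ± 0.68 (SD, n = 4) held 1 pool at 1.43 and 3 between -0.0034 and 0.13.

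In livers from 100% effluent, 0 of the 50 genes passed after adjustment and 3 of 50 passed unadjusted, all lower than control (6%, against 3.95% of the array). The count of 3 was 0 without control replicate 3 and 1 without control replicate 4. Gene 121 had log2 ratios of -0.31, -0.19, -1.31 and 0.42 at 100%, against 0.88, 2.73, 1.75 and 0.78 in control. These groups did not overlap, yet the dye-adjusted difference of -2.18 (SE 0.96, 95% interval -4.24 to -0.12) did not pass (limma, adjusted p 0.797). That SE rests on a spread pooled over all 16 arrays. The SD of gene 121 was 2.82 at 10%, where the doubtful replicate 4 is included, against 0.91 in control, 0.77 at 50% and 0.72 at 100% (n = 4 each). Gene 144 had 0.30, -2.07, 1.00 and -0.66 at 100%, overlapping control, with a difference of -1.74 (SE 0.65, adjusted p 0.797; -1.0035 without control replicate 3). Gene 163 was higher by 0.45 (SE 0.22, adjusted p 0.797) and gene 55 by 0.48 (SE 0.28, adjusted p 0.797). The median half-width of the 95% interval, which is not adjusted for the number of genes, was 0.57 to 0.58 for the 50 genes in the comparisons with control. Differences smaller than that were mostly not detectable even without adjustment. It is not the limit of the adjusted threshold, which gene 73 with a difference of 0.76 at 50% did not pass. The 3 comparisons share the control pools.

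**Figure D5:**
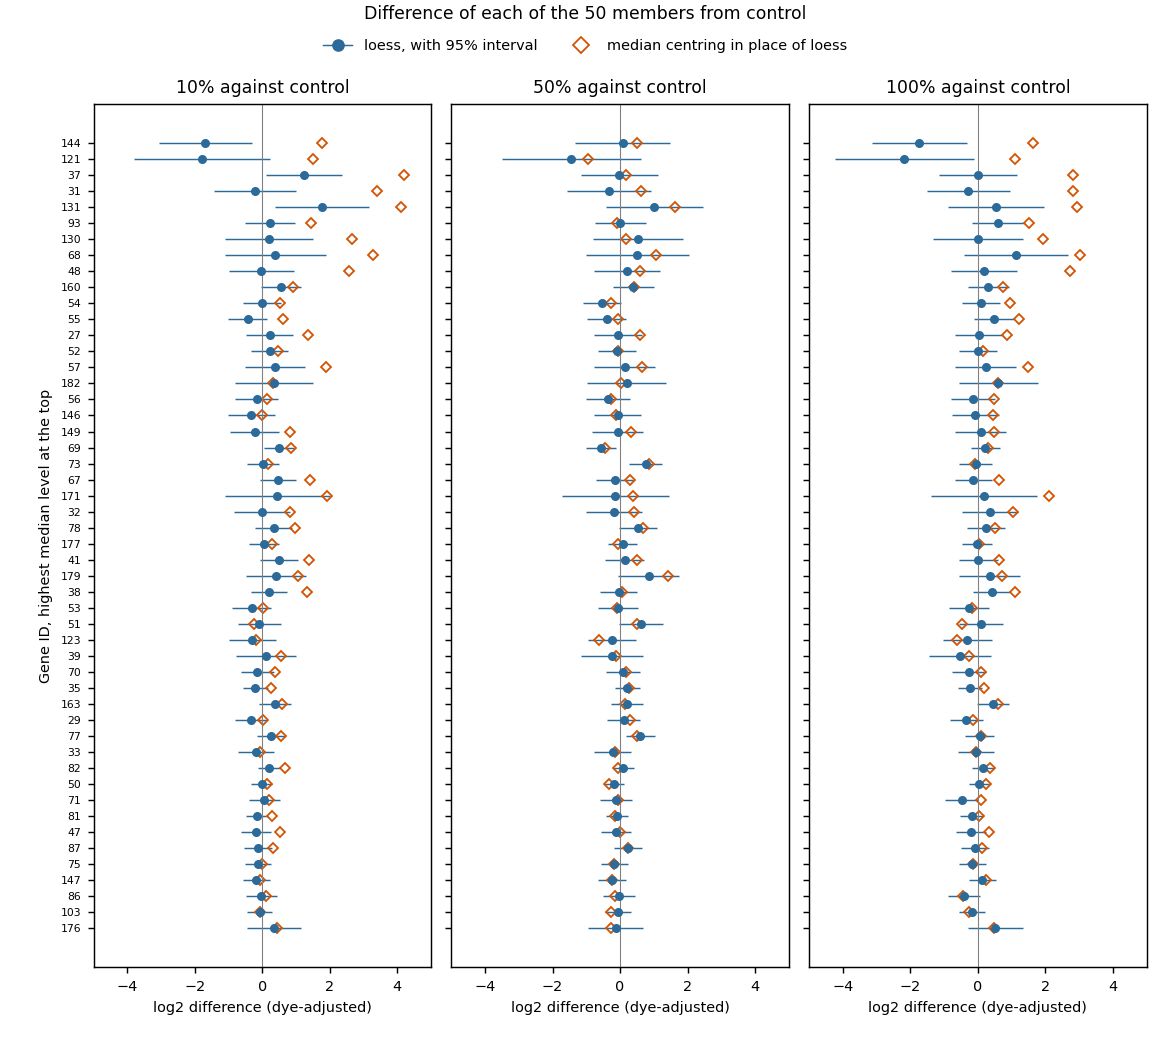
Dye-adjusted log2 differences with 95% intervals (blue, loess) and with median centring (orange diamonds) for the 50 genes at 10%, 50% and 100% effluent against control, brightest gene at the top. With loess the smallest adjusted p is 0.533 at 10%, 0.683 at 50% and 0.797 at 100%.

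The direction of the 50 genes as a set depended on the normalization. With loess, 50%, 44% and 54% of them were higher than control at 10%, 50% and 100%. With median centring, which subtracts one value per array and leaves any trend of ratio with brightness in place, the shares were 86%, 54% and 80%. Over all 152 genes the shares were 42.8%, 42.1% and 43.4% with loess and 48.7%, 46.7% and 43.4% with median centring. At 10% the median absolute difference of the brightest 8 genes was 0.81 with loess and 2.97 with median centring, and 3 of the 8 changed sign. Gene 144 stood at 1.77 at 10% and 1.64 at 100% with median centring, and gene 121 at 1.51 and 1.09, each opposite to its loess difference. Between concentrations, 46% of the 50 genes were higher at 50% than at 10% with loess and 8% with median centring, against 52.0% and 49.3% of all 152 genes. At 100% against 50% the shares were 50% with loess and 76% with median centring, against 47.4% and 41.4% of all genes.

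Between effluent concentrations, gene 69 gave the one call: 1 of the 50 genes, and 0.658% of the array, differed between 50% and 10% effluent after adjustment. Unadjusted, 7 of 50 passed (4 higher, 3 lower; 14%), against 8.55% of the array, and the count was 3 without 10% replicate 2, 4 without 50% replicate 4 and 11 without 50% replicate 1. Gene 69 had log2 ratios of -1.02, -0.20, -0.76 and -1.17 at 50% and of 0.58, 0.34, -0.02 and -0.00044 at 10%, without overlap. The difference was -1.05 (SE 0.21, 95% interval -1.49 to -0.61; limma, adjusted p 0.0226). Its sample signal was above the blanks on 2 of 4 arrays at 10%, where the offset pulls dim ratios towards 0, so no exact fold can be read from it. The value rests on several pools: the adjusted p was 0.154 without 10% replicate 1, 0.108 without 10% replicate 2, 0.134 without 50% replicate 1, 0.0753 without 50% replicate 3 and 0.0811 without 50% replicate 4.

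The levels behind that ratio differed between the groups on both sides. At 50% the sample of gene 69 stood at 1.55, 1.56, 1.40 and 1.72 times background and the reference at 3.82, 1.42, 1.63 and 3.10. At 10% the sample stood at 1.11, 1.06, 1.12 and 1.07 and the reference at 1.05, 1.05, 1.09 and 1.04. Before normalization both channels therefore stood higher relative to local background at 50%, the sample included. A ratio to background is not the signal itself, which was not compared. At 10% the gene was above the blanks in both dyes on 1 of 4 arrays, against 4 of 4 at 50%. High Cy5 background was present on 3 of the 10% arrays and 0 of the 50% arrays. With that class as a block the difference was -0.90 (adjusted p 0.358), and on low-background arrays alone, it was -0.999 (adjusted p 0.998, both by limma). The low-background set leaves 1 pool at 10%, assumed to vary like the other groups, so its p is little evidence either way.

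The other named differences between 50% and 10% did not pass: gene 73 was 0.75 higher (SE 0.23, adjusted p 0.394), gene 144 was 1.77 higher (SE 0.65, adjusted p 0.438) and gene 67 differed by -0.61 (SE 0.25, adjusted p 0.438). Between 100% and 50%, 0 of 50 passed after adjustment and 7 of 50 passed unadjusted (3 higher, 4 lower; 14%), against 7.24% of the array, a count that was 4 without 100% replicate 2 and 14 without 50% replicate 1. Gene 69 had -0.07, 0.16, -0.12 and -0.33 at 100%, which overlapped the 50% pools through replicate 4 at 100% and replicate 2 at 50%, with a difference of 0.79 (SE 0.22, adjusted p 0.265). Gene 73 differed by -0.83 (SE 0.24, adjusted p 0.265), gene 55 by 0.88 (SE 0.29, adjusted p 0.454) and gene 144 by -1.81 (SE 0.69, adjusted p 0.554). These comparisons share the 50% pools with the one above.

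In the test of any difference from control, 0 of 50 passed after adjustment and 5 of 50 unadjusted (10%), against 3.95% of the array. That count was 3 without 100% replicate 1 and 8 without 10% replicate 4 or 50% replicate 1. Gene 69 had the smallest adjusted p (0.189 by limma), ahead of genes 73 and 144 (0.613 each). For a straight trend over effluent percent, 0 of 50 passed after adjustment and 1 of 50 unadjusted (2%), against 4.61% of the array; it was 0 without 100% replicate 2, and 2 or 3 without each of 10 other arrays. Gene 71, the one that passed unadjusted, had a slope of -0.51 per 100 percentage points (SE 0.19, adjusted p 0.897), with means of 0.12 ± 0.33 in control, 0.18 ± 0.43 at 10%, -0.07 ± 0.08 at 50% and -0.28 ± 0.45 at 100% (SD, n = 4 each). Genes 55 (0.58, SE 0.29), 68 (0.98, SE 0.60) and 86 (-0.38, SE 0.19) each had an adjusted p of 0.957. The slope of gene 68 was 0.28 without 100% replicate 1, and that of gene 71 was -0.32 without 100% replicate 2.

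The dye term gave more small p-values than any contrast of concentrations. It gave 0 calls of 50 after adjustment but 14 of 50 unadjusted (5 higher and 9 lower in Cy5; 28%), against 22.4% of the array. These counts are not of like precision: the dye term sets 8 arrays against 8, a contrast 4 against 4. Over the 50 genes its median SE was 0.20, against 0.27 to 0.28 for the contrasts. Its median absolute size was 0.29, against 0.30 for 100% against 50% and 0.18 to 0.24 for the other contrasts. The term was -0.58 in gene 87 (adjusted p 0.0627) and -1.55 in gene 144 (SE 0.49, adjusted p 0.0960), and it was 0.91 in gene 32 (adjusted p 0.0960), all by limma.

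Across the 16 arrays the log2 ratio of gene 144 ran most closely with those of genes 29 and 70, both among the 50 (Pearson r 0.868 and 0.827). Gene 121 ran with genes 26 and 119 (0.803 and 0.763), neither of them among the 50, and gene 37 with gene 98 outside the set (0.667) and gene 69 inside it (0.502). Among themselves the 3 brightest genes had correlations of 0.237 (144 and 121), -0.159 (144 and 37) and 0.134 (121 and 37). These values are a description over 16 arrays that share one reference and their dye assignment.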

How the data were processed

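Per the file headers, the deposited scanner files give the mean intensity of each spot and of its local background in Cy3 and Cy5, without subtraction or normalization. A second deposited table holds log2 ratios per spot, with scale and direction unstated. For a check, ratios of the scanner values were loess-normalized without background correction, turned by the dye labels and taken without gene 160. They correlated with the second table at 0.640 to 0.994 on 15 arrays and at -0.560 on 10% replicate 4. The direction of that array is therefore in doubt. The table entered only as an alternative. The scanner is not given in the sources used here.

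Each array held 384 spots, of which 306 were gene spots for 152 genes and 32 were blanks. Intensities were corrected with normexp (offset 50) and normalized by loess (span 0.3, control spots at weight 0) in limma 3.58.1 under R 4.3.3. The offset pulls ratios of dim spots towards 0. Ratios, as log2 of sample over reference, were averaged per gene and fitted on all 16 arrays with 4 group means and a dye term (11 residual degrees of freedom, prior 3.01). Benjamini-Hochberg adjustment was over 152 genes within each comparison, with a threshold of 0.05. The fit was tested on simulated data in which every gene had one common spread. That run does not cover the differing spreads of the genes here.

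Genes were named by a fixed rule: those detected on all 16 arrays, the 8 brightest, those on 8 or 7 arrays by count, the 2 of smallest p in each direction per contrast and trend (3 for the test of any concentration), any past the threshold, and the 2 genes most correlated with each of the 3 brightest. Genes outside it (such as 32, 48, 56, 87, 146, 171 and 176) were singled out after their values were seen. The members, lists and tests were chosen with earlier results of these data known. The number of arrays limits the precision.

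Alternatives were the background correction, offset, median centring, deposited ratios, no dye term, a replicate block, the 50 genes alone, 10% replicate 4 turned, the Cy5 background class and each array left out. Group means were taken with and without the dye term, the adjusted profile having been added after the data were seen. Turning 10% replicate 4 was first run with its sign alone and then with its dye term turned as well, since a wrong dye label changes both. The choice between them was made after both results had been seen, so both are given.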

Additional observations from a re-analysis of the deposited data

Results flagged for a closer look

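In 52 groups of 4 arrays looked at for the genes named by smallest p, 5 held 1 array far from the other 3 by Dixon's criterion. A rate of 1 in 20 groups would give about 2.6. These genes were picked from the same data and share the same arrays, so 2.6 is not a chance level for them. Gene 144 stood at -2.14 on 10% replicate 2, against -0.32 to -0.16 on the other 10% arrays. On 100% replicate 2, the array with the fewest detected genes and a high Cy5 background, gene 73 stood at -0.86 (the other 100% arrays at -0.16 to -0.04) and gene 77 at -0.65 (-0.03 to 0.04). In control replicate 1 gene 54 reached 1.43, where the remaining control pools lay between -0.0034 and 0.13. Gene 163 stood at -0.23 on 100% replicate 3, against 0.43 to 0.56 on the others. The sample was in Cy5 on each of these arrays except 100% replicate 3, and the part of the dye or background was not tested.

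Gene 69 differed between 50% and 10% effluent by -1.05 on the log2 scale, the one difference between groups that passed the adjusted threshold in limma.

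Control spots outside the comparisons also gave signal. Of the 14 spots named Q, 62.1% of spot readings in Cy3 and 54.0% in Cy5 lay above the limit set by the blanks. Of the 32 spots named SSC, 8.98% in Cy3 and 2.73% in Cy5 did, against 0.391% of the blanks themselves in each dye. What Q and SSC hold is not given in the sources used here.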

How the results depend on the processing

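With 4 arrays a group, only differences large against their SE could pass. At 10% against control the median SE was 0.27 in the 50 genes and 0.16 in the other, dimmer genes. Most of the 50 genes stood under 1.2 times background, and the offset pulls ratios of dim spots towards 0. The number of detected genes was 30 with a limit of 5 SD, 32 with every spot above the limit, 58 with signal minus background and 72 with a limit of 2 SD. Of the 648 values of 24 named differences under alternatives, 11 reversed, in 8 differences. Most of the 27 alternatives per difference left out 1 of the 16 arrays, and none of those reversed a sign. All reversals came with median centring or on low-background arrays alone. With median centring, gene 144 turned to 1.77 (10% against control), 1.64 (100% against control), -1.27 (50% against 10%) and 1.15 (100% against 50%), and gene 121 to 1.51 (10% against control) and 1.09 (100% against control). On low-background arrays alone, chosen after seeing the data, gene 144 turned to 0.28 (10% against control), 1.25 (100% against control) and 0.0772 (100% against 50%), and the trends of genes 71 and 86 to 0.13 and 0.0385.

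Calls against control at 10% numbered 2 with median centring (genes 37 and 131, with 131 at 4.09, adjusted p 0.0123). With 10% replicate 4 turned together with its dye term there were 0 (gene 121 at -3.16, adjusted p 0.0546). With its sign alone turned there was 1, gene 121 (-3.34, adjusted p 0.0438), so that call depends on how a doubtful dye label is handled. At 50% against control the deposited ratios gave 1 call (gene 73, adjusted p 0.0465). Median centring gave 1 call for any concentration (gene 37) and 27 for the dye.

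Gene 69 at 50% against 10% kept its sign in 27 of 27 alternatives (-1.31 to -0.49) and passed in 17. Calls in that comparison fell to 0 with no background correction, the deposited ratios and the background block. With median centring (gene 69 at adjusted p 0.0837) the 1 call was gene 37, and on low-background arrays gene 130, there against a single 10% array assumed to vary like the other groups. Leaving out single arrays gave 0 to 1 calls for 50% against 10%, 0 to 1 for 100% against 50% and 0 to 1 for any concentration (gene 69 without 50% replicate 2, adjusted p 0.0383 and 0.0205), and 0 to 4 for the dye. The cause was not tested.

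Replicate numbers showed no clear pairing of the arrays. The 24 same-number pairs had a mean r of 0.0303 (-0.251 to 0.496, 9 over 0.1), and the 72 other pairs between groups a mean of -0.0104 (-0.444 to 0.324, 24 over 0.1). Of the 16 arrays, 7 correlated best with their own number, and these values do not settle whether the numbers mark pairs. The replicate block gave 1 dye call (gene 67), kept gene 69 as the 1 call for 50% against 10% (adjusted p 0.00883, limma) and changed no other call.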
